A study of Homo sapiens with 12 samples.

Results

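Rab GTPases are small proteins that mark the membranes of the cell and steer the vesicles that pass between them. The genes described here were those named RAB, a number and at most 1 letter, with a p-value in the deposited expression table and at least 1 region under that name in the deposited m6A table. Of 28265 genes listed, 62 had such a name, 56 of these had a p-value, and 46 of these also had an m6A region of their own. The cells were HepG2, a widely used human hepatocellular carcinoma line. One group was treated with toosendanin, a triterpenoid of Melia toosendan known for its toxicity to the liver, and the other was labelled control. N6-methyladenosine (m6A) is a methyl mark inside many mRNAs, and RNA pulled down with an antibody against it (IP) was sequenced beside the RNA before the pull-down (input). There were 3 IP and 3 input libraries from toosendanin cells and 3 IP and 3 input libraries from control cells, 12 in all. The labels give no dose, time or vehicle. They also do not say that replicate libraries stem from separate dishes of cells, so the p-values of expression reflect the spread among libraries alone, and that spread may be technical.

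A Rab is switched on when an exchange factor (GEF) loads it with GTP, binds its effectors in that state, and is switched off when an activating protein (GAP) speeds the breakdown of GTP. A lipid tail added by geranylgeranyl transferase holds it in the membrane, and the carrier GDI takes the inactive form back out. Each Rab has its own compartments. RAB5 proteins act on early endosomes, RAB7A on late endosomes and lysosomes, RAB4 and RAB11 proteins in recycling to the surface, RAB1 and RAB2 proteins between the endoplasmic reticulum (ER) and the Golgi, and RAB3 and RAB27 proteins in exocytosis. In hepatocytes these routes carry plasma proteins outward and receptors and their cargo inward.

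The Rab transcripts that changed were all higher after toosendanin. In the authors' deposited DESeq2 table, 22 of the 46 Rab genes were higher at an adjusted p under 0.05 and 0 were lower. Of all 16552 genes with an adjusted p, 15.7% were called higher and 15.7% lower (31.4% in all). Of the genes that also had an m6A region of their own, 18.5% were higher and 19.4% lower (37.9% in all). No Rab gene had a log2 fold change below 0 at an unadjusted p under 0.05 either. The median log2 fold change was 0.25 over the 46 Rab genes and -0.00023 over all genes with an adjusted p. Most of these genes were well counted, with mean normalized counts of 44.15 to 6547 and a median of 1175, against a median of 426.4 for all genes with an adjusted p. For the 50% of genes with the highest means the background was 22.4% higher and 23.0% lower (45.4% in all), and 17 of the 33 Rab genes there were higher (51.5%). The called changes ran on the log2 scale between 0.16 for RAB11A and 2.81 for RAB26, and 12 of 22 reached 1.5-fold and 3 reached 2-fold. In bulk RNA a change in the make-up of the culture and a change in RNA per cell cannot be told apart.

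The compartments differed in how many of their Rabs were called. Higher transcripts numbered 5 of 7 for the early endosome, 4 of 6 for the late endosome and lysosome, 3 of 7 for recycling, 4 of 12 for the ER and Golgi and 6 of 9 for exocytosis, the last 2 classes making up the secretory Rabs with 10 of 21. None of 5 Rabs outside these routes was called. The share called higher was 15.7% of all genes with an adjusted p and 22.4% of those in the upper 50% of means. The median log2 fold change was 0.73 for late endosome and lysosome, 0.72 for exocytosis, 0.42 for early endosome, 0.21 for ER and Golgi, 0.11 for recycling and -0.10 for the rest. These are counts of few genes whose places in the classes were assigned from textbook knowledge, and the difference between classes was not tested. The exocytic median was 0.30 over its members in the upper 50% of mean counts.

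**Figure D1:**
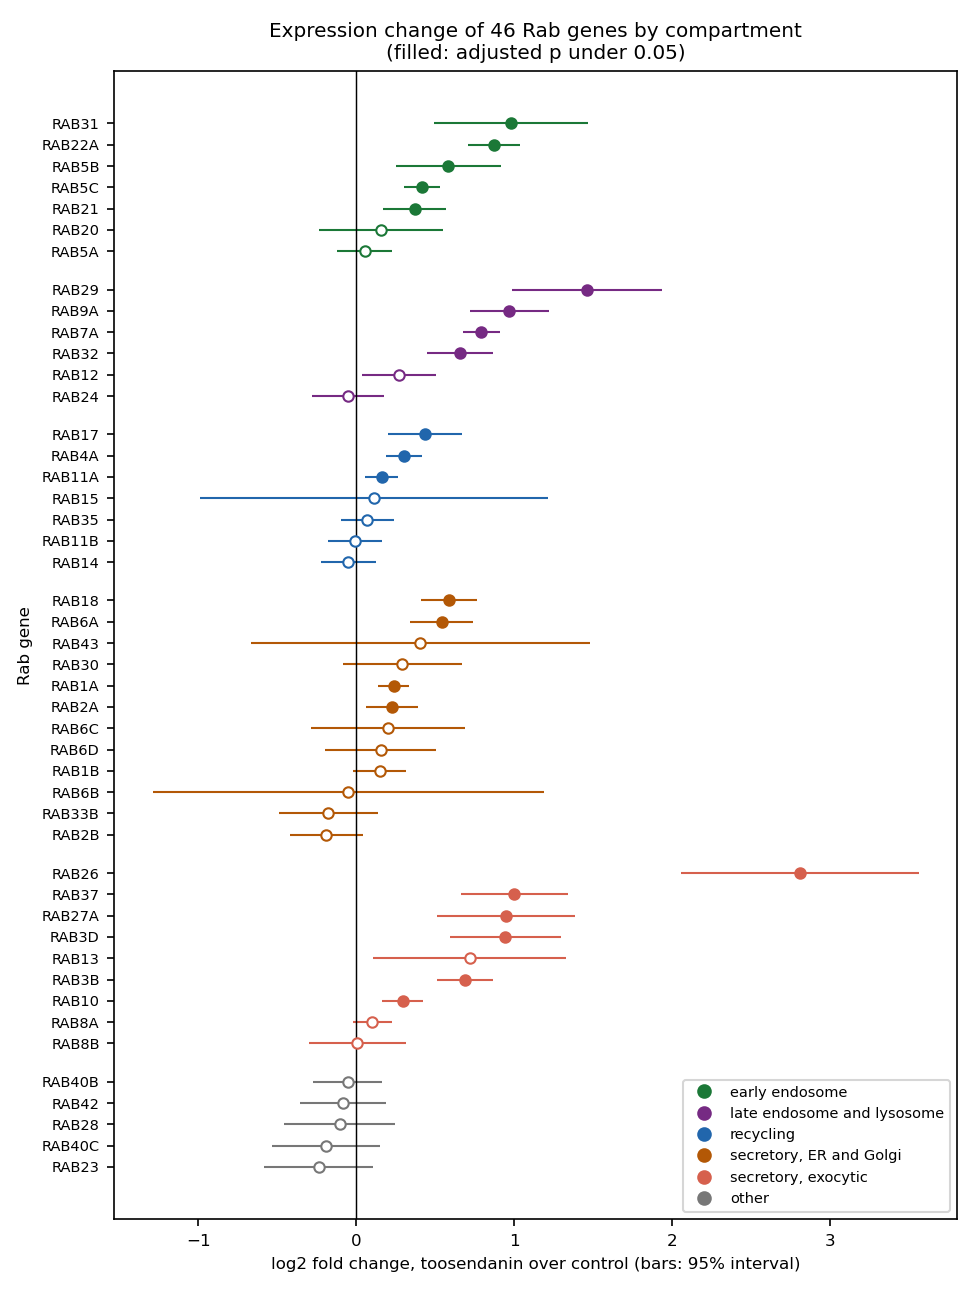
Log2 fold change of toosendanin over control (horizontal axis) for each of the 46 Rab genes (vertical axis), grouped and coloured by compartment, with bars for the 95% interval from the deposited standard error. Filled points have an adjusted p under 0.05, and all 22 of them lie right of 0, from 0.16 for RAB11A to 2.81 for RAB26.

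Values per library are not in the tables used here, so the data behind the fold changes are shown as input reads summed over the 3 libraries of a condition and over the m6A regions of a gene. They are given as RPM, reads of a gene per 1000000 of such reads in the condition, of which there were 24253006 in toosendanin input and 34131862 in control input. Centred on the median of genes, the summed inputs lay above 0 for all 22 genes called higher, and so did the summed IP reads. Across the 46 genes the deposited log2 fold change and the centred input change had a Pearson r of 0.94, a description in which both measures may share libraries. The sources do not say which libraries entered the expression table.

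**Figure D2:**
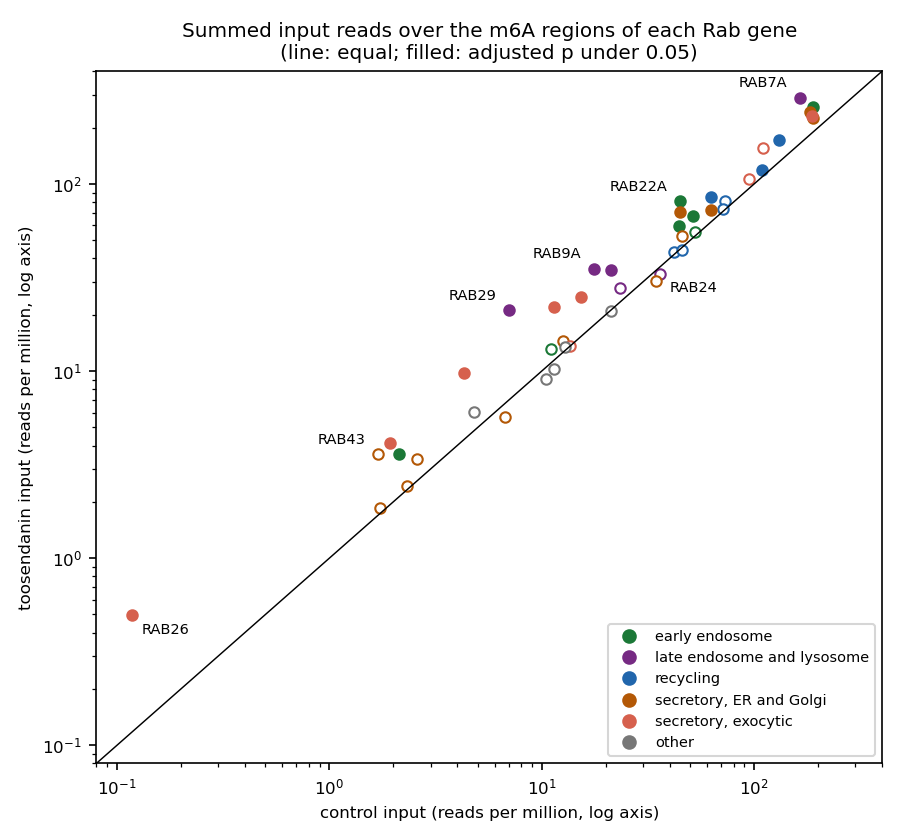
Input RPM in toosendanin cells (vertical, log axis) against control cells (horizontal, log axis), each point being 1 Rab gene summed over its m6A regions and libraries, coloured by compartment and filled where the adjusted p is under 0.05. Filled points lie above the line of equality, with RAB7A at 289 in toosendanin and 164 in control and RAB29 at 21.1 in toosendanin and 7.0 in control.

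The promoters of the Rab genes were searched for letters known as binding elements, in the genes called higher and in the others. RefSeq promoters (GRCh38.p14, 250 bases before to 50 bases after the start, the first listed start of each gene) were found for 38 of the 46 genes, 18 of them called higher. None was found for RAB1A, RAB2A, RAB26 and RAB37, which were called higher, or for RAB12, RAB15, RAB20 and RAB33B, which were not. The shares below thus leave out RAB26, the gene with the largest called change. The letters CACGTG, an E-box that reads the same on both strands and lies at the centre of the element bound by the lysosomal regulator TFEB, stood in 6 of 38 Rab promoters (15.8%). They stood in 4 of 18 promoters of genes called higher (22.2%) and in 2 of 20 of the others (10%), against 7.43% of all 27305 promoters and 9.78% of those of genes with an adjusted p. The 6 stretches around it are shown 5′ to 3′ on the gene's strand with the E-box in capitals, first the 4 genes called higher, then RAB5A and RAB24, which were not called.
RAB29: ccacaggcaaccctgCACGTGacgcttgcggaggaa
RAB31: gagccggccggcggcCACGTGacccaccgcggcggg
RAB21: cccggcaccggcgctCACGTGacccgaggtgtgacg
RAB4A: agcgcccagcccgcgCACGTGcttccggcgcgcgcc
RAB5A: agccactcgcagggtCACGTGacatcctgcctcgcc
RAB24: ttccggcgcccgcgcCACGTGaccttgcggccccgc
They lie at chr1:205775443-205775478 on the minus strand for RAB29, chr18:9708226-9708261 on the plus strand for RAB31, chr12:71754828-71754863 on the plus strand for RAB21, chr1:229270994-229271029 on the plus strand for RAB4A, chr3:19946961-19946996 on the plus strand for RAB5A and chr5:177303729-177303764 on the minus strand for RAB24. Relative to the transcript start, the E-box lay at position 20 in RAB29, -60 in RAB31, -20 in RAB21, -102 in RAB4A, -121 in RAB5A and -30 in RAB24. A match is a description of letters and not a binding site.

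The longer palindrome TCACGTGA, which contains the E-box, stood in 2 of 38 Rab promoters, 1 of 18 among those called higher, against 1.04% of all promoters and 1.74% of those of genes with an adjusted p. The cyclic AMP element TGACGTCA stood in 0 of 38, against 1.98% and 3.02% of the same 2 sets. The letters CCAAT, searched on both strands, stood in 10 of 38, against 35.7% and 36.4% of the same 2 sets. They stood in 2 of 18 promoters of genes called higher (11.1%) and in 8 of 20 of the others (40%). GGGCGG, the core of a GC box, also searched on both strands, stood in 33 of 38. It stood in 44.6% of all promoters and 66.3% of those of genes with an adjusted p. Among genes called higher it stood in 15 of 18 (83.3%), and among the others in 18 of 20 (90%). Differences between called and other genes were not tested for any of these letters, the E-box included. The median GC content was 66.2% in the Rab promoters, against 58.3% in all promoters and 64.7% in those of genes with an adjusted p. Whole promoters are given for RAB29, the gene with the largest called change in the upper 50% of mean counts (chr1:205775433-205775732, minus strand), and for RAB7A, the one with the smallest adjusted p (chr3:128725933-128726232, plus strand), with the E-box in capitals where present.
RAB29: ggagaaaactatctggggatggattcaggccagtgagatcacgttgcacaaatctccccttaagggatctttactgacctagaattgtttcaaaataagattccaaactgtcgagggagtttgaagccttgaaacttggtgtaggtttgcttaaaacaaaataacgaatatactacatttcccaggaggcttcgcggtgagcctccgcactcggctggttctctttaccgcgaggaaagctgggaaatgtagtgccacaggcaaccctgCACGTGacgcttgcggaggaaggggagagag
RAB7A: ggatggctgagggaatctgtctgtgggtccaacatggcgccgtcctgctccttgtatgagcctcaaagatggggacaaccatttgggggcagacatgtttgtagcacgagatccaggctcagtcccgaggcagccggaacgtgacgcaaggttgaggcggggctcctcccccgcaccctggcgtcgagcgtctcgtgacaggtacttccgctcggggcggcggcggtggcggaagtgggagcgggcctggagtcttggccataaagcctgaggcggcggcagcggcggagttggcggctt
The RAB7A promoter held no CACGTG in this window.

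Early endosome Rabs were mostly higher. RAB22A, which acts in sorting and recycling from early endosomes, had 81.1 input RPM in toosendanin cells and 44.7 in control cells. Its log2 fold change in the authors' deposited table was 0.87 ± 0.08 (± is the standard error here and below; DESeq2 adjusted p = 8.27e-24). RAB31, a relative of RAB22A that also acts between the Golgi and endosomes, stood at 0.98 ± 0.25 in the authors' deposited table, on a mean of only 195.8 normalized counts. RAB21, which works in the endocytosis of integrins, had 67.6 RPM in toosendanin input and 51.3 in control input, and a deposited log2 fold change of 0.37 ± 0.10 in the authors' deposited table. RAB20, found on endosomes and phagosomes, stood at 0.16 ± 0.20 in the authors' deposited table and was not called.

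The 3 RAB5 genes, which share the task of fusing early endosomes, gave different values. RAB5C had 258 input RPM in toosendanin cells and 189 in control cells, and stood at 0.42 ± 0.06 in the authors' deposited table (DESeq2 adjusted p = 5.03e-12). RAB5B had 59.9 in toosendanin and 44.4 in control, with 0.58 ± 0.17 in the authors' deposited table (DESeq2 adjusted p = 0.00308). RAB5A had 55.6 in toosendanin and 52.5 in control, with 0.05 ± 0.09 in the authors' deposited table (DESeq2 adjusted p = 0.723). The 95% interval of RAB5A ended at 0.23 and that of RAB5C began at 0.31, while that of RAB5B began at 0.25. The differences between the 3 genes were not tested.

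Late endosome and lysosome Rabs held the smallest adjusted p of the family. RAB7A, which brings late endosomes and autophagosomes to fusion with lysosomes, had 289 input RPM in toosendanin cells and 164 in control cells. In the authors' deposited table it stood at 0.79 ± 0.06 (DESeq2 adjusted p = 5.73e-37). RAB9A, which serves transport from late endosomes back to the Golgi, had 35.3 in toosendanin and 17.6 in control, and 0.97 ± 0.13 in the authors' deposited table (DESeq2 adjusted p = 5.5e-13). Both genes were also higher in the summed IP reads.

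RAB29, a Rab of the Golgi and of stressed lysosomes that recruits the kinase LRRK2, showed the largest change among well-counted members. It had 21.1 input RPM in toosendanin cells and 7.0 in control cells, and 1.46 ± 0.24 in the authors' deposited table (DESeq2 adjusted p = 2.2e-08). RAB32, which acts in the making of lysosome-related organelles and at mitochondria, had 34.8 in toosendanin and 21.2 in control, with 0.66 ± 0.11 in the authors' deposited table. RAB12, which sends receptors to lysosomes, stood at 0.27 ± 0.12 with an adjusted p of 0.0673 in the authors' deposited DESeq2 table. RAB24, linked to autophagy, stood at -0.05 ± 0.12 there and was not called.

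Of the 7 recycling Rabs, 3 were called higher. RAB17, a Rab of polarised epithelial cells, had 0.43 ± 0.12 in the authors' deposited table, and 84.6 input RPM in toosendanin cells and 62.6 in control cells. RAB4A, which drives fast recycling from early endosomes, had 0.30 ± 0.06 in the authors' deposited table, and 171 in toosendanin and 131 in control. RAB11A, the main Rab of the recycling endosome, stood at 0.16 ± 0.05 in the authors' deposited table (DESeq2 adjusted p = 0.012), the smallest change called. Its close relative RAB11B at -0.01 ± 0.09, RAB14 at -0.05 ± 0.09 and RAB35 at 0.07 ± 0.08 were not called in the authors' deposited table. For these 3 the 95% interval lay between -0.22 and 0.24, inside a 1.5-fold change either way. RAB15, an inhibitor of early endocytic traffic, stood at 0.11 ± 0.56 there.

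Between ER and Golgi, 4 of 12 Rabs rose. RAB18, which acts on lipid droplets and the ER, had 70.9 input RPM in toosendanin cells and 44.7 in control cells, and 0.59 ± 0.09 in the authors' deposited table (DESeq2 adjusted p = 1.71e-09). RAB6A, which runs traffic within and out of the Golgi, had 243 in toosendanin and 183 in control, and 0.54 ± 0.10 in the authors' deposited table. RAB1A, needed for transport from ER to Golgi, stood at 0.24 ± 0.05 in the authors' deposited table. RAB2A, which acts at the same step and in fusion with lysosomes, stood at 0.23 ± 0.08 in the authors' deposited table (DESeq2 adjusted p = 0.0265).

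Their relatives did not pass. RAB1B stood at 0.15 ± 0.08, RAB2B at -0.19 ± 0.12 and RAB33B, a Golgi Rab that binds an autophagy protein complex, at -0.17 ± 0.16 in the authors' deposited table. The interval of RAB2B ended at 0.04 and that of RAB2A began at 0.06, a difference that was not tested. RAB30 at 0.29 ± 0.19, RAB43 at 0.41 ± 0.55 and the neuronal RAB6B at -0.05 ± 0.63 were also not called in the authors' deposited table. The centred summed input change of RAB43 was 1.07, from 1 region with 87 input reads in toosendanin and 58 in control. Regions shared with ISY1-RAB43 were left out, the largest with 410 input reads in toosendanin and 426 in control. The value of 1.07 therefore covers a small part of the gene's reads. RAB6C at 0.20 ± 0.25 and RAB6D at 0.16 ± 0.18 there are given as uncertain, like RAB6A, because RAB6C and RAB6D are near copies of RAB6A and the sources do not say how the counting treated such reads.

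Exocytic Rabs included the largest change. RAB26, which recruits mature secretory granules and vesicles, stood at 2.81 ± 0.38 in the authors' deposited table (DESeq2 adjusted p = 5.95e-12), on a mean of 75.96 normalized counts. Its only m6A region held 12 input reads in toosendanin and 4 in control, and its centred summed input change was 1.97 on the log2 scale, a smaller fold than the deposited one. RAB37, a Rab of secretory granules, had 9.73 input RPM in toosendanin cells and 4.31 in control cells, with 1.0 ± 0.17 in the authors' deposited table. RAB27A, which docks secretory granules and exosome-bearing endosomes, had 22.0 in toosendanin and 11.4 in control, with 0.95 ± 0.22 in the authors' deposited table.

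Of the RAB3 genes, which act at the last steps of regulated secretion, RAB3D had 4.12 input RPM in toosendanin and 1.93 in control, with 0.95 ± 0.18 in the authors' deposited table. RAB3B had 24.9 in toosendanin and 15.2 in control, with 0.69 ± 0.09 in the authors' deposited table (DESeq2 adjusted p = 4.71e-13). RAB10, which delivers membrane to the surface and shapes the ER, stood at 0.30 ± 0.07 there, with 231 in toosendanin and 188 in control. RAB8A at 0.10 ± 0.06 and RAB8B at 0.01 ± 0.16, which carry Golgi vesicles to the surface, were not called in the authors' deposited table. RAB13, a Rab of tight junctions, had 0.72 ± 0.31 in the authors' deposited table, its DESeq2 adjusted p being 0.0631, while its summed input was 156 in toosendanin and 110 in control.

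None of the 5 Rabs of other functions was called, and their deposited log2 fold changes lay below 0. RAB23, a brake on Hedgehog signalling, stood at -0.24 ± 0.18, RAB28 of cilia and photoreceptors at -0.10 ± 0.18 and RAB42 at -0.08 ± 0.14 in the authors' deposited table. RAB40B at -0.05 ± 0.11 and RAB40C at -0.19 ± 0.17, which join ubiquitin ligases through a SOCS box, were in the same range there. In the centred summed inputs RAB40B stood at 0.33 and RAB40C at 0.07, the other sign from their deposited changes. Of all 24 genes not called, 18 had a 95% interval within a 1.5-fold change either way.

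For 3 of the 46 genes the standard error was at least 2 times the median of the 200 genes nearest in mean count. RAB15 had 5.98 times that median, RAB43 had 4.86 times and RAB13 had 3.80 times, so their fold changes were less precisely measured than those of genes of like count. In the RefSeq table (GRCh38.p14) RAB43 overlaps the read-through gene ISY1-RAB43 and RAB15 overlaps CHURC1-FNTB, whereas no overlap is listed for RAB13. The part of such overlaps in the error was not tested.

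Of the remaining Rab names, 10 had a p-value but no m6A region under their own name alone, and 6 had a mean of 0, which were RAB25, RAB27B, RAB33A, RAB38, RAB39A and RAB44. Among the 10, RAB39B at 2.80 ± 0.55 and RAB3A at 0.99 ± 0.32 were higher and none was lower in the authors' deposited table, with means of 29.82 and 73.07. RAB4B had 1.0 ± 1.73 in the authors' deposited table and an error 6.73 times that of genes of like count, and overlaps the read-through genes MIA-RAB4B and RAB4B-EGLN2. RAB34 at -0.09 ± 0.39 and RAB36 at -0.30 ± 0.50 were not called in the authors' deposited table. RAB19, RAB41, RAB9B, RAB3C and RAB40A had means of 5.13, 2.08, 0.71, 1.60 and 0.44 there and were not called.

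The genes that load, unload and read Rabs were taken from lists of known regulators. Their counts stand against the 15.7% of all genes called in each direction, and the 22.4% higher and 23.0% lower among the 50% of genes with the highest means. Of 38 measured GEFs, 14 were higher (36.8%) and 1 lower (2.63%) in the authors' deposited table, with a median log2 fold change of 0.17. HPS1, a subunit of the exchange factor for RAB32, stood at 0.94 ± 0.12, SMCR8 of the C9orf72 complex at 0.66 ± 0.08 and ANKRD27, an exchange factor for RAB21, at 0.60 ± 0.08 in the authors' deposited table. SBF2 stood at -0.32 ± 0.07 there. The GEF list includes C9orf72, SMCR8 and WDR41, of which only SMCR8 was called. Whether their complex acts as a GEF or a GAP is not settled, and the GEF and GAP counts depend on that placing. Of 38 GAPs, 11 were higher (28.9%) and 5 lower (13.2%) in the authors' deposited table, with a median of 0.07. EVI5 stood at 0.39 ± 0.09 and TBC1D9 at 0.38 ± 0.09, against TBC1D4, the GAP of insulin-driven glucose transporter traffic, at -0.56 ± 0.10, TBC1D8 at -0.46 ± 0.07 and TBC1D31 at -0.90 ± 0.25 in the authors' deposited table. SGSM1 was listed at 6.55 ± 1.66 there on a mean of 7.446 normalized counts.

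The cycle of lipid tails and GDI went both ways. Of its 8 genes, 3 were higher (37.5%) and 2 lower (25%) in the authors' deposited table. RABAC1, which helps to place Rabs in membranes, stood at 0.57 ± 0.13 and RABIF, which stabilises nucleotide-free Rabs, at 0.49 ± 0.19 in the authors' deposited table. CHML, an escort protein for the lipid transfer, stood at -0.99 ± 0.15 and RABGGTA, a subunit of the transferase, at -0.28 ± 0.10 there.

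Among 20 effectors of the late endosome, the authors' deposited table called 8 higher (40%) and 0 lower, against 15.7% each way over all genes, with a median of 0.30. PLEKHM1, which ties RAB7A to the fusion machinery, stood at 0.84 ± 0.10, the tethering subunit VPS18 at 0.58 ± 0.08 and the retromer subunit VPS35 at 0.34 ± 0.05 in the authors' deposited table. Among 17 effectors of the early endosome, the authors' deposited table called 2 higher (11.8%) and 1 lower (5.88%), with WDFY2 at 0.65 ± 0.08, WDFY1 at 0.59 ± 0.09 and RABEP2 at -0.41 ± 0.10. Among 18 recycling effectors, the authors' deposited table called 6 higher (33.3%) and 4 lower (22.2%). MICALL1 stood at 1.06 ± 0.09, FSCN1, an actin bundler, at 0.86 ± 0.12 and RAB11FIP1 at 0.80 ± 0.14, against RAB11FIP3 at -0.43 ± 0.07, EXOC6 at -0.40 ± 0.12 and GRIPAP1 at -0.26 ± 0.08 in the authors' deposited table. Among 28 secretory effectors, the authors' deposited table called 7 higher (25%) and 4 lower (14.3%), shares near the background. The autophagy receptor OPTN, which binds RAB8, stood at 0.74 ± 0.06, GCC1 at 0.51 ± 0.08 and RILPL2 at 0.46 ± 0.10, against SYTL1 at -0.62 ± 0.13, SYTL2 at -3.06 ± 0.74 and KIF20A, a kinesin that binds RAB6 and acts in cell division, at -3.80 ± 0.23 in the authors' deposited table.

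**Figure D3:**
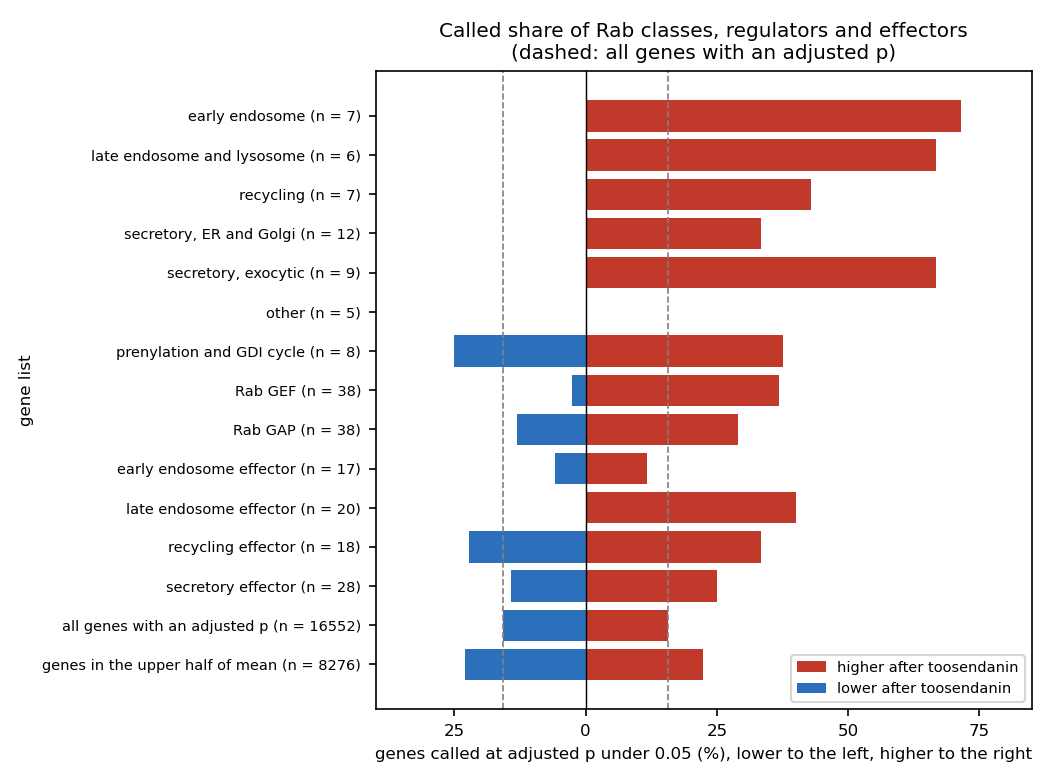
Share of genes called at an adjusted p under 0.05 (horizontal axis, percent; lower to the left, higher to the right) in each Rab class, each list of regulators and effectors and all genes (vertical axis), with dashed lines at the 15.7% called in each direction among all genes with an adjusted p. The Rab classes have no bar to the left, and late endosome effectors have 8 of 20 genes to the right.

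The m6A of the Rab transcripts was read as the ratio of IP to input reads of a region, both scaled to their totals. These totals were sums over all deposited m6A regions, so a ratio of 1 is the average of those regions. It is not the level of RNA without m6A, and a ratio below 1 does not show that a region lacks m6A. The 46 genes had 125 regions, with a median of 2.5 per gene against 3 over all genes. No replicate spread is in these summed counts, so intervals and errors hold counting error only. Of 72 Rab regions with at least 100 control input reads, 18 (25%) had a control ratio above 1 by their 95% interval and 38 (52.8%) one below 1, against 28.6% and 52.4% of all such regions. None of the 72 reached 2-fold enrichment in control, which 4.55% of all such regions did.

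Among the 72 regions with at least 100 control input reads, the control ratio was highest in RAB20 and RAB32. The single region of RAB20 had a ratio of 1.49 in toosendanin and 1.92 in control, and that of RAB32 had 1.71 in toosendanin and 1.91 in control. The main region of RAB7A, the one with most input reads, had 1.81 in toosendanin and 1.77 in control, from 7975 IP and 3678 input reads in toosendanin and 6054 IP and 2764 input reads in control. A second RAB7A region stood at 0.68 in toosendanin and 0.60 in control, so these 2 regions of RAB7A differed more from each other than each did between conditions. RAB18 had 1.66 in toosendanin and 1.77 in control and RAB5A had 1.72 in toosendanin and 1.75 in control in their main regions. At the other end, the 2 regions of RAB24 had 0.31 and 0.53 in toosendanin and 0.35 and 0.35 in control.

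The share of Rab regions called in m6A was near that of all regions. In the authors' deposited table, 5 of 74 Rab regions with an FDR passed 0.05, 1 higher and 4 lower, which is 6.76% against a background of 8.95% over 24688 regions (2.71% higher and 6.24% lower). RAB13 had 4725 IP and 3785 input reads in toosendanin, and 5591 IP and 3758 input reads in control. Its log2 change was -0.29 ± 0.04 in the authors' deposited table (FDR = 4.57e-09). The expression error of RAB13 was 3.80 times that of genes of like count, and summed counts cannot show such spread. RAB20 had 568 IP and 318 input reads in toosendanin, and 901 IP and 379 input reads in control, with a log2 change of -0.49 ± 0.13 in the authors' deposited table (FDR = 0.00561). The errors are counting errors computed here.

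Of the other 3 called regions, 1 in RAB2A stood at -0.38 ± 0.13 (FDR = 0.0326), 1 in RAB10 at -0.12 ± 0.04 (FDR = 0.0111) and 1 in RAB5C at 0.13 ± 0.04 (FDR = 0.0217) in the authors' deposited table. The RAB2A region with most input reads was another one, at 0.21 ± 0.10 (FDR = 0.182) in the authors' deposited table. With the test statistic widened to its spread over all regions, only RAB13 was called. That widening was the same factor of 1.53 for every region and does not cover a spread particular to RAB13. Scaled to totals, RAB13 remained lower and RAB5C higher, while RAB20, RAB2A and RAB10 were not called, and 5 other regions were called higher. The median difference between the deposited change and the change scaled to totals was -0.09 over the Rab regions with an FDR. After centring on the median of all regions, 5 Rab regions were higher and 2 lower, against a background of 4.34% higher and 3.49% lower.

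Among the genes called higher in expression, RAB2A, RAB10 and RAB5C had a called m6A region. RAB31, RAB37, RAB3D and RAB26 had no region with an FDR, so none of theirs could be called. RAB29, whose input is given above, had the deposited FDR for 1 of its 5 regions only, with a log2 change of 0.82 ± 0.30 (FDR = 0.0588) in the authors' deposited table. RAB22A had 5 regions with log2 changes of -0.26 to 0.43 and no FDR under 0.05 in the authors' deposited table. RAB7A had 3 regions at -0.07, 0.06 and -0.09 there. The IP reads of RAB7A were 361 RPM in toosendanin and 191 in control beside its input of 289 RPM in toosendanin and 164 in control, so more RAB7A RNA was pulled down and more was in the input. Of the 5 genes with a called region, RAB2A, RAB10 and RAB5C were called higher in expression and RAB13 and RAB20 were not called.

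**Figure D4:**
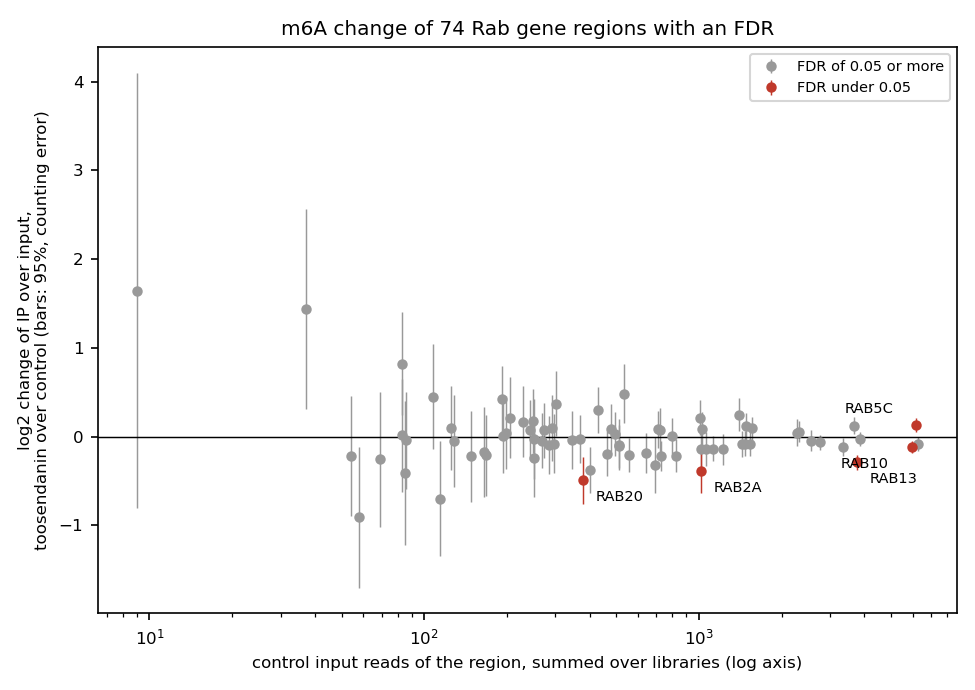
Log2 change of the IP over input ratio, toosendanin over control (vertical axis), against control input reads of the region (horizontal, log axis) for the 74 Rab regions with an FDR, with bars for 95% counting intervals. The 5 regions with an FDR under 0.05 are red and named, with RAB20 lowest of them at -0.49 and RAB5C the only one above 0.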

How the data were processed

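Toosendanin and control HepG2 libraries (3 IP and 3 input each) were made with a stranded mRNA kit with unique molecular identifiers, per the labels' protocols. The submitters' processing notes name HISAT2, StringTie and DESeq. Settings, annotation, build and m6A caller were not given in the sources used here. The authors deposited a table with DESeq2 columns, per the file headers: a mean normalized count (a signal value), a log2 fold change with standard error, a Wald statistic (a score), a p-value and an adjusted p. They also deposited m6A counts per region summed over libraries, with a log2 change, p-value and FDR per the file headers. Nothing was refitted, because neither table holds values per library, although a fit of counts per library had been foreseen. Calls used the deposited adjusted p or FDR under 0.05, and Wald 95% intervals used the deposited error. An adjusted p was given for 16552 of 19077 genes with a p-value. An FDR was given for 24688 of 46178 regions, and for 74 of the 125 Rab regions. Regions without an FDR could not be called, whatever their p-value. Recomputing the Benjamini-Hochberg adjustment gave the deposited adjusted p. The m6A errors are Poisson errors of the 4 counts, which the deposited p-values imply within 1% in 99.5% of 45139 regions. The deposited sign was taken as toosendanin over control, since across 7948 genes with upper 50% means it ran with the centred summed inputs (Pearson r 0.94, genes not being independent). Input changes used a pseudocount of 0.5 and were centred on genes with at least 100 input reads. Depth per library is unknown.

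The members and lists were chosen with earlier results of these data known. All members are named. Of each regulator list up to 3 genes per direction with the smallest adjusted p are named, except 1 gene not reported here. HepG2 markers were as the label says, with mean normalized counts of 161730 for ALB and 411979 for APOB, against 0 for PTPRC, COL1A1 and KDR. LYZ, on the list of blood markers, had 49191. Scripts ran in Python 3.11.15 with scipy 1.17.1, pandas 2.3.3 and numpy 2.4.6. The m6A statistic was tested on simulated counts that held counting error only, whereas its spread over regions here was 1.53. That simulation therefore cannot tell how many calls in these data are false.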

Additional observations from a re-analysis of the deposited data

How the results depend on the processing

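The count of 22 Rab genes higher and 0 lower in expression was 20 and 0 at an adjusted p under 0.01 (RAB11A and RAB2A not passing), 12 and 0 with at least 1.5-fold change, 17 and 0 among genes in the upper 50% of means, and 22 and 0 with the adjustment over every p-value or with the same sign asked of the summed inputs. No called gene changed sign in the summed inputs, which moved 7 of 46 genes by more than their standard error. The summed inputs may share libraries with the expression values and were used to set the deposited sign. Agreement of sign is therefore not an independent check. Class medians kept their sign under all 4 alternatives run on them. Asking for an adjusted p kept every member, and centring subtracted only -0.00023, so neither could change a sign. The order of classes did change. In the upper 50% of means exocytosis stood at 0.30, below early endosome at 0.42. With Rabs of more than 1 known site left out, exocytosis stood at 0.95, above late endosome and lysosome at 0.66. In m6A, where the deposited test called 1 higher and 4 lower, an FDR under 0.01 gave 0 and 2, asking for 2-fold enrichment in control left no Rab region with an FDR to call (0 and 0), centring on the median of regions gave 5 and 2, the widened statistic 0 and 1, and scaling to totals, added after the data were seen, 6 and 1. With centring, RAB11A, RAB1B, RAB24 and RAB29 were added to RAB5C as higher, and RAB13 and RAB20 stayed lower. The widened form called 1 region, that of RAB13. Regions with at least 100 control input reads gave 1 and 4. Asking for single-name regions could change nothing, because every Rab region used here carries 1 gene name by the choice of members. No paired analysis was possible because the tables hold no values per library. For the same reason leaving out replicates and another normalization were not run. What limits m6A is that its counts carry no spread between libraries.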
